A study of Mus musculus with 6 samples.

Results

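The genes described here are the cytokine gene Tnf, its receptor genes Tnfrsf1a and Tnfrsf1b, and 6 genes that NF-kB signalling feeds back on or works through, Nfkbia, Nfkbiz, Tnfaip3, Tnfaip2, Nfkb1 and Relb. They were chosen by symbol, and all 9 were found among the 32285 genes of the count matrices. The data are single-cell 3' RNA profiles of mouse ventricular cells other than cardiomyocytes, from male animals aged 8 to 12 weeks. Wild-type mice (WT, strain C57BL/6JRj) and Trpm4 knockout mice (KO, strain B6.Cg-Trpm4tm1.2-PG) were compared. Each genotype was sampled 24 h after sham surgery and 24 h or 72 h after infarction by tying off the left anterior descending (LAD) coronary artery, here called ligation. Hearts were digested with thermolysin and papain, and flow sorting on Calcein-AM and DAPI kept the live cells. Each of the 6 groups is 1 library from the pooled cells of 4 mice, so every difference below is between 2 libraries, without replicates and without a test.

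TNF is a cytokine made mainly by activated myeloid cells, and it acts on target cells through the receptors TNFR1, encoded by Tnfrsf1a, and TNFR2, encoded by Tnfrsf1b. Receptor signalling activates the IKK kinase, which marks the inhibitor I-kappa-B-alpha for degradation and frees NF-kB dimers to enter the nucleus. NF-kB then induces its own brakes, among them Nfkbia, which encodes that inhibitor, and Tnfaip3, which encodes the ubiquitin-editing enzyme A20. In the infarcted heart TNF is known as part of the early inflammatory response.

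The 9 genes lie on 8 chromosomes, and their spans below are those of the GENCODE M21 annotation of GRCm38. Tnf (ENSMUSG00000024401) spans chr17:35199381-35202007 on the minus strand. Tnfrsf1a (ENSMUSG00000030341) spans chr6:125349362-125362484 on the plus strand, and Tnfrsf1b (ENSMUSG00000028599) spans chr4:145213463-145246870 on the minus strand. Nfkbia (ENSMUSG00000021025) spans chr12:55489410-55492647 on the minus strand, and Tnfaip2 (ENSMUSG00000021281) spans chr12:111442469-111455018 on the plus strand. Nfkbiz (ENSMUSG00000035356) spans chr16:55811375-55838899 on the minus strand. Tnfaip3 (ENSMUSG00000019850) spans chr10:19000910-19015657 on the minus strand. Nfkb1 (ENSMUSG00000028163) spans chr3:135584655-135691547, and Relb (ENSMUSG00000002983) spans chr7:19606217-19629438, both on the minus strand.

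RefSeq promoters of GRCm38.p6, taken from 250 bases before to 50 bases after the start, were matched for 6 of the 9 genes, with 7 promoters in all. Nfkbiz, Nfkb1 and Relb had no entry. The kappa B consensus, the DNA motif that NF-kB dimers bind, was searched on both strands and was present in 4.51% of 32851 promoters of the same length. It matched in the promoter of Nfkbia and in 1 of the 2 promoters of Tnfaip3; the other 5 promoters held no match. The stretch before the start is shown for those feedback genes because it carries the match, in capitals, and for Tnf as the ligand, where no letters matched. A match is a description of the sequence only.

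Nfkbia, chr12:55492648-55492847, minus strand: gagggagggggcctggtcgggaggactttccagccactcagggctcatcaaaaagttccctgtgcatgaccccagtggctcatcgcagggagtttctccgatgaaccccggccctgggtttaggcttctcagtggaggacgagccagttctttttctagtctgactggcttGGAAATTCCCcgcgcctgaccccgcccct
Tnfaip3, chr10:19015411-19015547, minus strand: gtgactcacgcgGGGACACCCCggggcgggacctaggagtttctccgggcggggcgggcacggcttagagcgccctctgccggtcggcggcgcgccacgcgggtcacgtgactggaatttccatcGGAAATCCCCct
Tnf, chr17:35202008-35202207, minus strand: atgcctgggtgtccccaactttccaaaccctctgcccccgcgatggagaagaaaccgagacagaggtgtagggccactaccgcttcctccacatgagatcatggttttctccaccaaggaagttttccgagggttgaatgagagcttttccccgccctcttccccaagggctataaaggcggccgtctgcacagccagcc

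Counted from the start, the match lay at −29 to −20 in Nfkbia, and the Tnfaip3 matches lay at −125 to −116 and −12 to −3.

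After filtering, 32085 of 34940 cells were kept, 3365 to 6824 per library, and the libraries held 20995280 to 45649061 deposited UMIs. The KO 72 h library stood apart in depth, with a median of 1351 UMIs per kept cell against 3076 to 8011 in the others. Its cells labelled monocyte/macrophage had a median of 1354 UMIs, against 9667 to 11870 in the other libraries, and its fibroblasts 1088 against 8783 to 10746. A cluster with cardiomyocyte markers held 394 cells, 13 to 176 per library, although these cells were to be left out. Pairs of libraries shared 3 to 14 cell barcodes, 0.083% to 0.206% of the smaller library. Trpm4 was counted at 2.57 to 6.20 CPM (UMIs per 1000000 UMIs of the library) in the KO libraries and at 4.29 to 8.79 CPM in the WT libraries. Whether the counted 3' end lies outside the deleted part is not given in the sources used here, so this is no check of the labels.

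Levels below are CPM, the UMIs of a gene per 1000000 UMIs summed over the cells of a class in a library. Libraries are given in the order WT sham, KO sham, WT 24 h, KO 24 h, WT 72 h and KO 72 h, where 24 h and 72 h are times after ligation. A gene is called higher or lower in a class when the ratio of 2 libraries is at least 1.5-fold, its exact 95% counting interval is off 1, the pair holds at least 50 UMIs and each library at least 100 cells of the class. These intervals hold counting error alone, not the variation from mouse to mouse or from one library preparation to another.

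Neutrophils carried the highest levels of Tnf, Tnfrsf1a, Tnfrsf1b, Nfkbia, Tnfaip3 and Tnfaip2, and for these 6 genes the range over the 6 libraries did not overlap that of the next class. For Tnf, Nfkbia, Tnfaip3 and Tnfaip2 the next class was platelets, with 1 library and so no range (68.3, 1309, 137 and 677 CPM). A platelet cluster of 112 cells had Cstdc4, Cd177 and the neutrophil marker Cxcr2 among its leading genes. The Nfkbiz range of neutrophils overlapped only the platelet class, which rests on 1 library with 222 CPM. Nfkb1 and Relb did not follow this order. Nfkb1 was highest in dendritic cells, at 98.5 to 130 CPM over 4 libraries, and Relb was highest in B cells, at 51.2 to 82.3 CPM over 3 libraries, with dendritic cells (33.5 to 54.6 CPM) and neutrophils (25.6 to 55.0 CPM) overlapping them.

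**Figure D1:**
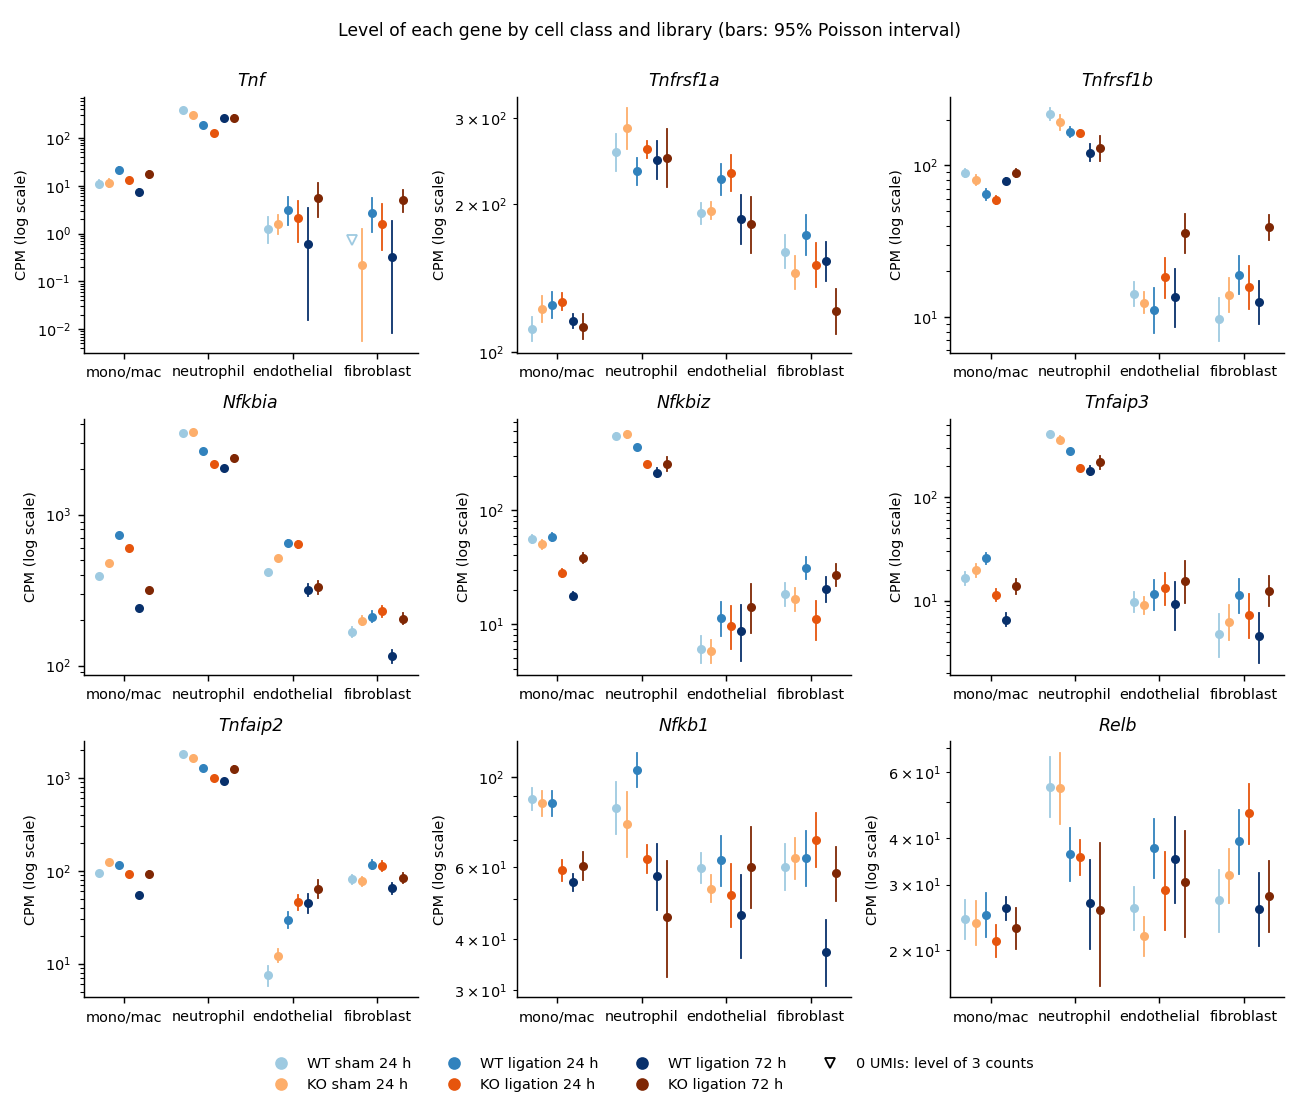
Levels of the 9 genes in CPM on a log axis, 1 panel per gene, for monocyte/macrophage cells, neutrophils, endothelial cells and fibroblasts in each of the 6 libraries; points are CPM with exact 95% Poisson intervals, and an open triangle marks 0 UMIs drawn at the level of 3 counts. Neutrophils lie at 125 to 391 CPM of Tnf, above all libraries of the other 3 classes.

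In neutrophils Tnf stood at 391, 304, 188, 125, 265 and 266 CPM. Both sham libraries were the highest and both 24 h ligation libraries the lowest, with the 72 h libraries between them. Ligation 24 h against sham gave a log2 ratio of −1.06 (counting interval −1.20 to −0.92) in WT and −1.28 (−1.44 to −1.13) in KO, so Tnf was lower after ligation in each genotype. At 72 h against 24 h the KO ratio was 1.09 (0.88 to 1.30). The median gene of neutrophils itself shifted by 0.52 in that comparison, and relative to it the Tnf value was 0.57, under the 1.5-fold limit. The KO library was lower than WT at 24 h by a log2 ratio of −0.59 (−0.72 to −0.45), a value at the edge of the limit that was −0.58 and not called with a 10% mitochondrial limit or with a mean over cells.

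Most Tnf UMIs came from neutrophils in the first 5 libraries. Neutrophils held 81.8%, 76.5%, 76.8%, 80.2%, 66.7% and 47.8% of them, while their share of all UMIs of the library was 6.94%, 4.97%, 19.3%, 25.7%, 4.77% and 4.24%. After each cell was thinned to 1000 UMIs, 18.4%, 16.4%, 11.5%, 8.41%, 15.2% and 15.6% of neutrophils had a Tnf UMI, in the same order of conditions as the levels. Without thinning the shares were 29.1%, 23.5%, 26.5%, 15.7%, 21.4% and 19.2%. Endothelial cells, which served as the background class, had a thinned share of 0% (0 of 234 cells, WT 72 h) to 0.973%.

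Neutrophils fell into clusters that were built without the 9 genes, and the Tnf level differed between them. Other NF-kB targets were not left out, so the clusters are not independent of these levels. The cluster led by Ccrl2, Gadd45b and Hcar2, whose leading genes also include Tnf and Tnfaip2 themselves, held 71.6% and 61.4% of sham neutrophils, 16.0% and 20.9% at 24 h after ligation, and 66.5% and 77.1% at 72 h (WT and KO). Its Tnf level was 524, 481, 453, 306, 313 and 257 CPM. A cluster led by Cstdc4, Cd177 and Retnlg, which held 58.4% of WT and 39.6% of KO neutrophils at 24 h after ligation, had 178 and 107 CPM. The cluster led by Retnlg, S100a9 and S100a8, genes of newly released neutrophils, had 47.5 to 82.6 CPM in the sham and 24 h libraries.

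Within the Ccrl2 cluster the log2 ratio of Tnf at 24 h after ligation against sham was −0.21 in WT and −0.65 in KO, against −1.06 and −1.28 over all neutrophils. At 72 h against 24 h the cluster ratio was −0.53 in WT and −0.25 in KO, against 0.50 and 1.09 over all neutrophils. The counting interval of the −0.25 included no change. The KO to WT ratio at 24 h was −0.57 in this cluster, −0.74 in the Cd177 cluster, −0.46 in the S100a9 cluster and 0.25 in a cluster led by Slfn4 and Ifit1. In 3 of these 4 clusters, then, the KO value lay below the WT value.

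**Figure D2:**
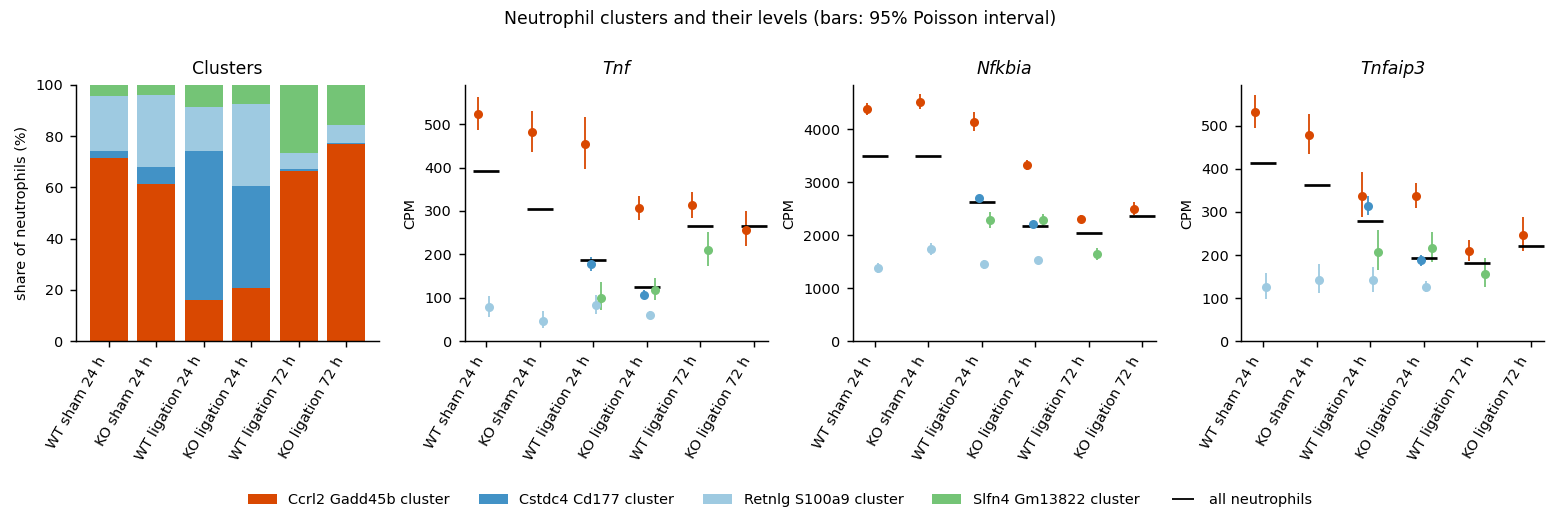
Share of each neutrophil cluster in percent of the neutrophils of a library, and CPM of Tnf, Nfkbia and Tnfaip3 by cluster and library, with a dash for all neutrophils together; clusters are labelled by leading genes. The Ccrl2 Gadd45b cluster falls from 71.6% and 61.4% in sham to 16.0% and 20.9% at 24 h after ligation, and its Tnf level is above that of the Retnlg S100a9 cluster in the libraries that hold both.

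Monocyte/macrophage cells had low Tnf levels, at 11.1, 11.5, 21.2, 13.1, 7.56 and 17.2 CPM. In WT the 24 h ligation library was the highest and the 72 h library the lowest, whereas in KO the 72 h library was the highest. Tnf was called higher in WT at 24 h after ligation than in sham (log2 ratio 0.93, 0.60 to 1.27) and lower at 72 h than at 24 h (−1.48, −1.77 to −1.19). The WT rise from sham to 24 h was uneven across clusters. It was 0.44 in the cluster led by Ccl2, Spp1 and Arg1, where the counting interval included no change. A cluster led by Ccl24 and Saa3 gave 0.93, and one led by Plac8 and Ear2 had 11.1 CPM in sham and 10.7 CPM at 24 h. In WT at 24 h these clusters held 81, 38 and 14 of the 184 Tnf UMIs of the class. The remaining UMIs came from clusters for which no ratio is given. The largest of those in WT at 24 h was led by Mgl2 and Lyve1, with 71 cells. Its part in the WT rise was not tested. The KO library was called lower than WT at 24 h (−0.69, −0.97 to −0.40) and higher at 72 h (1.19, 0.90 to 1.48). The 24 h call ended without doublet removal (−0.48) and relative to the median gene (−0.56).

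RNA of neutrophil marker genes was counted in these cells, and its level moved with the libraries. Whether it was carried over from neutrophils or made by these cells was not tested. All 8 neutrophil markers summed to 430, 484, 1951, 2910, 178 and 1867 CPM in monocyte/macrophage cells, with Ly6g at 0 in the KO sham and WT 72 h libraries, against 64818 to 168706 CPM in neutrophils. When the neutrophil share that these markers give (0.258% to 2.88% of UMIs) was taken off, the macrophage Tnf level was 9.72, 10.3, 18.9, 11.2, 6.90 and 9.86 CPM. The KO to WT log2 ratio was then −0.76 at 24 h, and 0.52, no longer called, at 72 h.

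Endothelial cells had 0.618 to 5.48 CPM of Tnf and fibroblasts 0 to 5.06 CPM, with the highest value of each in the KO 72 h library. These levels rest on at most 20 UMIs in a library, and no pair reached the 50 UMIs that a call needs. Dendritic cells had 7.20 to 20.8 CPM over 4 libraries.

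The receptor genes differed in how evenly they were counted across classes. Tnfrsf1a, which encodes the widely expressed receptor that carries the death domain, stood at 255, 286, 234, 259, 246 and 249 CPM in neutrophils. It stood at 192, 194, 225, 232, 187 and 182 CPM in endothelial cells, at 121 to 173 CPM in fibroblasts and at 112 to 127 CPM in monocyte/macrophage cells. In none of these 4 classes was it called in any of the 7 library comparisons.

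Tnfrsf1b, the receptor gene found mainly in leukocytes and endothelium, stood at 218, 193, 166, 164, 122 and 130 CPM in neutrophils, with the sham libraries highest and the 72 h libraries lowest. No neutrophil comparison was called on the CPM scale. Relative to the median gene, which shifted by 0.54 in WT and 0.52 in KO between 24 h and 72 h, Tnfrsf1b in neutrophils was lower at 72 h, by −0.99 and −0.85. In monocyte/macrophage cells it stood at 89.3, 80.1, 64.5, 59.3, 79.1 and 89.6 CPM, lowest at 24 h after ligation in both genotypes. The KO ratio of 72 h to 24 h there was called at 0.60 (0.47 to 0.72), but 7 alternatives gave 0.31 to 0.56, under the limit.

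Endothelial Tnfrsf1b stood at 14.3, 12.4, 11.2, 18.2, 13.6 and 36.0 CPM, and fibroblast Tnfrsf1b at 9.74, 14, 19.0, 15.8, 12.6 and 39.1 CPM. The KO 72 h library was the highest in each, and was called higher than WT 72 h by 1.40 (0.64 to 2.21) and 1.64 (1.10 to 2.20) on the log2 scale. That library also had the most macrophage marker RNA in these classes. It held 4091 CPM of the 12 markers in endothelial cells (85.0 to 629 CPM elsewhere) and 8072 CPM in fibroblasts (61.9 to 540 CPM elsewhere). With the neutrophil and macrophage shares taken off, its Tnfrsf1b level was 15.1 CPM in endothelial cells and 3.84 CPM in fibroblasts, and neither class was still called higher.

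Among the inhibitors, Nfkbia had the highest CPM of its classes in neutrophils, at 3497, 3503, 2627, 2176, 2038 and 2361 CPM. Sham libraries were the highest in both genotypes. Only KO at 24 h against sham passed the rule (−0.69, −0.73 to −0.64), and relative to the median gene that value was −0.50. Within the Ccrl2 cluster the level was 4378, 4525, 4140, 3331, 2309 and 2502 CPM, with both 72 h libraries the lowest. Over all neutrophils the KO 24 h level lay below the KO 72 h level.

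In monocyte/macrophage cells Nfkbia peaked at 24 h after ligation in both genotypes, with 394, 482, 735, 602, 242 and 316 CPM. The WT ratio to sham was 0.90 (0.85 to 0.96), called higher. The KO ratio was 0.32, or 0.61 relative to the median gene, which shifted by −0.29 in that comparison. From 24 h to 72 h Nfkbia was lower in each genotype, by −1.60 (−1.65 to −1.55) in WT and −0.93 (−0.99 to −0.88) in KO, the latter −0.54 and not called as a mean over cells. Endothelial cells followed the same order, with 417, 519, 646, 635, 317 and 331 CPM, whereas fibroblasts lay between 115 and 228 CPM, lowest in the WT 72 h library. Endothelial Nfkbia was called higher at 24 h than in sham in WT (0.63), and lower at 72 h than at 24 h in WT (−1.03) and KO (−0.94). From WT sham to 24 h it went from 413 to 547 CPM in the cluster led by Timp4 and Aqp1. In the one led by Rbp7 and Stmn2 it went from 470 to 590 CPM. A cluster led by Apln and Pgf had 983 CPM at WT 24 h. It held 148 of 737 endothelial cells there, against 55 of 2353 in WT sham, and the part of this shift in the call was not tested.

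Nfkbiz encodes I-kappa-B-zeta, an unusual nuclear family member that helps induce secondary response genes. Its neutrophil levels were 453, 468, 361, 254, 215 and 257 CPM. KO was lower at 24 h than in sham by −0.88, and WT was lower at 72 h than at 24 h by −0.75. In monocyte/macrophage cells the levels were 55.7, 50.1, 58.1, 28.0, 17.6 and 37.9 CPM.

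The WT macrophage level of Nfkbiz thus differed little between sham and 24 h, while the KO level at 24 h was low. KO was called lower than WT at 24 h (−1.05, −1.23 to −0.87) and higher at 72 h (1.11, 0.92 to 1.30). With the neutrophil share taken off, these ratios were −1.16 and 0.88, both still called. The KO ratio of 24 h to sham was −0.84 (−1.02 to −0.65), which was −0.55 relative to the median gene and no longer called.

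Tnfaip3 stood at 413, 362, 278, 194, 182 and 220 CPM in neutrophils and at 16.6, 19.7, 25.7, 11.3, 6.57 and 13.9 CPM in monocyte/macrophage cells. In macrophages the 2 genotypes moved in opposite directions between sham and 24 h after ligation. WT was called higher (0.63, 0.34 to 0.92), a value of 0.55 once the neutrophil share was taken off and 0.31 as a mean over cells. KO was called lower (−0.80, −1.10 to −0.50), a value of −0.39 without doublet removal and −0.51 relative to the median gene. None of these 4 alternative values passed the rule.

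The KO macrophages were lower than WT in Tnfaip3 at 24 h by −1.18 (−1.46 to −0.90). This was −0.73 without doublet removal, −1.45 with the neutrophil share taken off and −1.05 relative to the median gene, each still called. At 72 h KO was higher by 1.08 (0.76 to 1.40), which was 0.35 with the neutrophil share taken off and no longer called. In the Ccrl2 cluster of neutrophils the level was 532, 479, 338, 336, 209 and 246 CPM, so at 24 h after ligation the genotypes differed by −0.01 on the log2 scale there, against −0.74 in the Cd177 cluster.

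Tnfaip2 is a TNF-induced gene whose product resembles an exocyst subunit. Its neutrophil levels were 1786, 1649, 1266, 992, 915 and 1250 CPM, highest in the sham libraries. Its clearest change was in endothelial cells, with 7.47, 12.2, 29.8, 45.5, 45.1 and 63.4 CPM. All 4 ligation libraries lay above both sham libraries.

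Endothelial Tnfaip2 was called higher at 24 h after ligation than in sham by 2.0 (1.53 to 2.47) in WT and 1.90 (1.54 to 2.27) in KO. From WT sham to 24 h it went from 3.11 to 11.7 CPM in the Timp4 and Aqp1 cluster. In the Rbp7 and Stmn2 cluster it went from 4.38 to 18.8 CPM. The Apln and Pgf cluster had 70.9 CPM in WT 24 h and 85.6 CPM in KO 24 h. That cluster held 148 of 737 endothelial cells in WT 24 h, against 55 of 2353 in WT sham. The part of this shift in the call was not tested. With the neutrophil and macrophage shares taken off, the endothelial levels were 1.97, 9.41, 26.5, 29.1 and 43.3 CPM in the first 5 libraries. The last library then stood at 3.11 CPM, the level of 3 counts. The KO library was called higher than WT in sham (0.70, 0.28 to 1.14) and at 24 h (0.61, 0.20 to 1.02). As a mean over cells these were 0.41 and 0.52, and neither was called. With the shares taken off, the values were 2.26 in sham and 0.13 at 24 h, so that setting moved them in opposite directions. The sham call was also lost with leading genes in at least 10% of cells. Within the endothelial class, that setting left out only a cluster of 15 cells, with 2 in WT sham, 3 in KO sham and 10 in KO 24 h. Its leading genes included Acod1, also a leading gene of the Ccrl2 neutrophil cluster. The part of these few cells in the 2 calls was not tested.

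Of the subunits, Nfkb1 encodes the p105 precursor of p50 and Relb a subunit of the non-canonical dimer. Neutrophil Nfkb1 stood at 84.1, 76.8, 104, 63.0, 57.0 and 45.4 CPM, with the WT 24 h library the highest. KO was called lower than WT at 24 h (−0.73, −0.91 to −0.55), a value of −0.46 and not called after thinning to 1000 UMIs. In monocyte/macrophage cells it stood at 88.5, 86.1, 86.2, 59.1, 55.1 and 60.6 CPM, so the KO 24 h level lay beside the levels at 72 h. The lower value of WT at 72 h than at 24 h was called (−0.64), and was −0.43 and not called as a mean over cells.

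Relb in neutrophils stood at 55.0, 54.7, 36.3, 35.5, 26.8 and 25.6 CPM, a stepwise order shared by both genotypes. Ligation 24 h against sham was called lower in WT (−0.60) and KO (−0.62), and relative to the median gene these were −0.38 and −0.43. In monocyte/macrophage cells Relb lay between 21.1 and 25.9 CPM in all 6 libraries, with no call.

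Counted over the 9 genes and 4 classes, 33 of the 36 pairs of gene and class were measured at 24 h against sham. In WT 10 were called, where 21.5% of all measured pairs of gene and class were. Of them 8 were higher and 2 lower, against 9.05% and 12.4% of all pairs. In KO 9 were called (background 23.1%), 1 higher and 8 lower, against 6.96% and 16.1%. Relative to the median gene the KO split was 4 higher and 3 lower, so the balance of directions depends on the scaling. From 24 h to 72 h, 16 were called in WT (background 40.5%), 1 higher and 15 lower, against 20.4% and 20.1%. In KO 8 were called (background 33.0%), 5 higher and 3 lower, against 20.4% and 12.6%. Relative to the median gene the KO split was 5 higher and 5 lower. Shares of all pairs on that scale are not given, for this split or for the one at 24 h against sham.

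By class, 3 of the 9 genes were higher in WT monocyte/macrophage cells at 24 h after ligation than in sham, where 5.84% of all genes were. In KO 2 were lower, Nfkbiz and Tnfaip3, with 24.0% of all genes lower. Endothelial cells and fibroblasts of WT had 3 (Nfkbia, Nfkbiz and Tnfaip2) and 2 (Tnfrsf1b and Nfkbiz) higher, against 9.55% and 11.7% of all genes. Endothelial Nfkbiz, at 11.2 CPM against 6.00 CPM in sham (log2 ratio 0.90), gave 0.02 with a 10% mitochondrial limit. In neutrophils 2 were lower in WT, against 22.8% of all genes, and 6 in KO, against 11.7%. The 6 were Tnf, Nfkbia, Nfkbiz, Tnfaip3, Tnfaip2 and Relb. From 24 h to 72 h, 6 of the 9 were lower in WT monocyte/macrophage cells, where 16.6% of all genes were, namely Tnf, Nfkbia, Nfkbiz, Tnfaip3, Tnfaip2 and Nfkb1. In WT neutrophils 3 were lower (Nfkbiz, Tnfaip3 and Nfkb1), against 11.8% of all genes, and in WT fibroblasts 5 were, against 30.8%. In KO fibroblasts Nfkbiz and Tnfrsf1b were higher at 72 h than at 24 h, as were 15.1% of all genes.

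**Figure D3:**
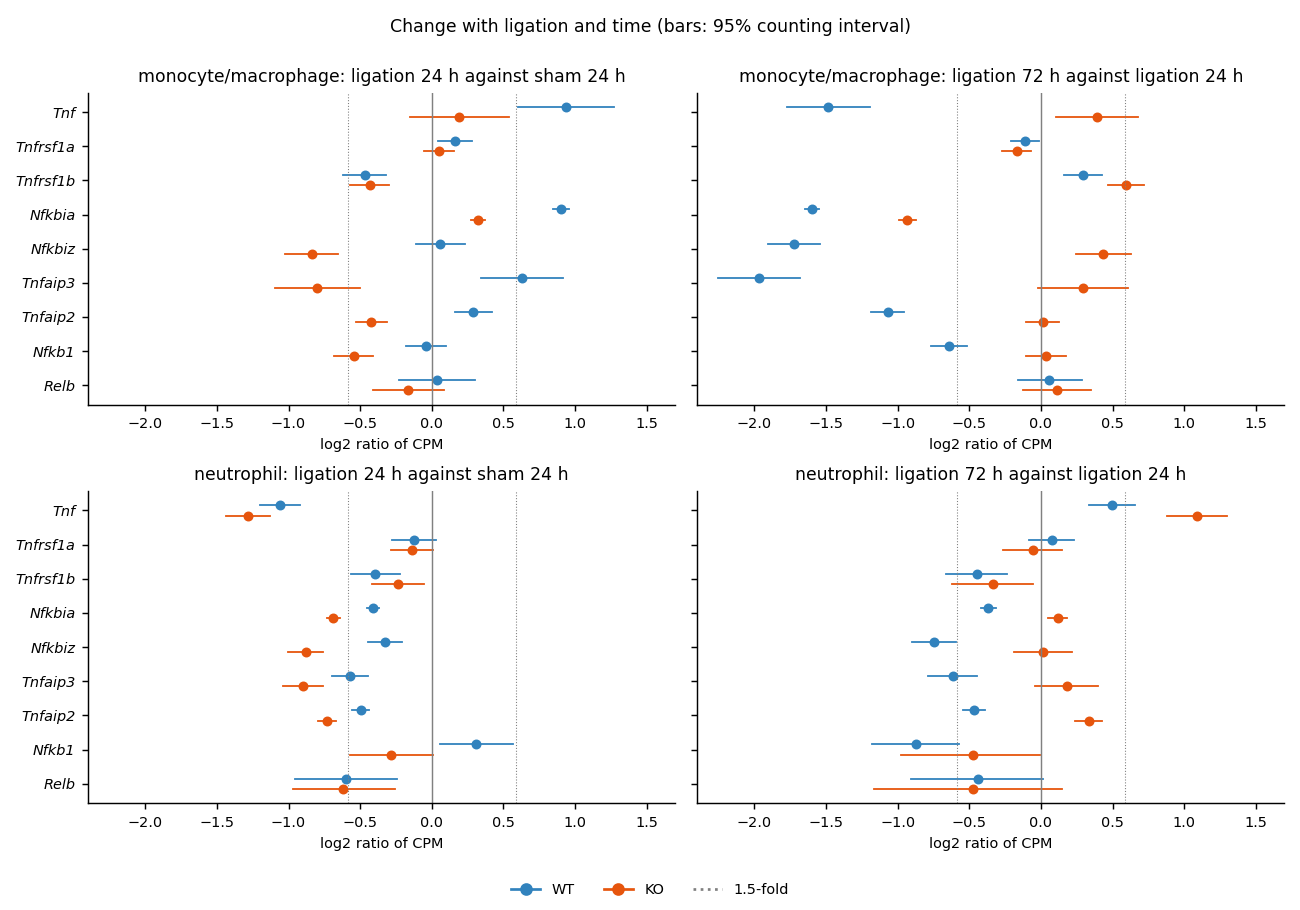
Log2 ratios of CPM for the 9 genes in monocyte/macrophage cells and neutrophils, at 24 h after ligation against sham and at 72 h against 24 h; WT is blue, KO orange, bars are exact 95% counting intervals. In WT monocyte/macrophage cells Tnf, Nfkbia and Tnfaip3 lie above 0 in the first contrast (0.93, 0.90 and 0.63) and far below 0 in the second (−1.48, −1.60 and −1.97).

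Between genotypes, 1 of 33 measured pairs was called in sham hearts (endothelial Tnfaip2, higher in KO). The background there was 6.12%, with 3.4% higher and 2.72% lower. At 24 h after ligation 8 were called (background 10.8%), 2 higher and 6 lower in KO, against 3.27% and 7.49%. At 72 h 9 of 32 were called (background 14.5%), and all 9 were higher in KO, against 8.48% higher and 6.06% lower of all pairs. With the neutrophil and macrophage shares taken off, 8 were called at 72 h, 2 higher and 6 lower. Without the clusters that come mostly from 1 library 4 were called. No share of all pairs is given under these settings, so these counts cannot be set against the 14.5%.

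At 24 h Tnf, Nfkbiz and Tnfaip3 were lower in KO monocyte/macrophage cells (background for lower 8.08%), Tnf and Nfkb1 in neutrophils (5.44%), and Nfkbiz in fibroblasts. The share for fibroblasts alone is not given, and over the 4 classes together it was 7.49%. The fibroblast levels of Nfkbiz at 24 h were 31.1 CPM in WT and 10.9 CPM in KO, a log2 ratio of −1.50 (−2.19 to −0.86). In endothelial cells Tnfrsf1b and Tnfaip2 were higher in KO (3.01%). The Tnfrsf1b call rests on 44 UMIs in KO and 36 in WT, with a log2 ratio of 0.70 (0.04 to 1.38). The endothelial class also held a cluster of 15 cells with Acod1 among its leading genes, 10 of them in KO 24 h and 0 in WT 24 h. Its part in these 2 calls was not tested. At 72 h macrophage Tnf, Nfkbiz, Tnfaip3 and Tnfaip2 were higher in KO (background for higher 7.45%), and of these only Nfkbiz was still called with the neutrophil share taken off. Fibroblasts of KO had 4 genes higher at 72 h, Tnfrsf1b, Nfkbia, Tnfaip3 and Nfkb1, where 14.5% of all genes were. For the first 3 of these the ratio was −1.50, −1.37 and −0.65 once the neutrophil and macrophage shares, 2.62% and 37.3% of the UMIs of that library's fibroblasts, were taken off. With a share this large the values hang on the subtraction. Whether the KO fibroblasts themselves were higher or lower cannot be told from them.

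Macrophage clusters differed in the size of the 24 h difference. In the cluster led by Ccl2, Spp1 and Arg1, which held 44.4% of WT and 56.1% of KO monocyte/macrophage cells at 24 h, the KO to WT log2 ratio was −0.44 for Tnf, −0.78 for Nfkbiz and −0.75 for Tnfaip3. In the cluster led by Ccl24 and Saa3, with 22.7% and 11.6% of the cells, the same ratios were −1.75, −1.24 and −1.93. The Plac8 and Ear2 cluster gave 0.11 for Tnf and −0.48 for Nfkbiz. At 24 h these clusters held 81, 38 and 14 of the 184 macrophage Tnf UMIs in WT, and 158, 14 and 37 of 246 in KO. No such ratio is given for a cluster led by Mgl2 and Lyve1, with 71 cells in WT and 118 in KO at 24 h. Its part in the Tnf call of the class was not tested. At 72 h a cluster led by Mpeg1, Gm42418 and Lars2 held 47.1% of the KO monocyte/macrophage cells, and 1293 of its 1409 cells came from that library. In the Ccl2, Spp1 and Arg1 cluster the KO to WT ratio at 72 h was 1.32 for Tnf, 1.21 for Nfkbiz and 1.08 for Tnfaip3. It was 0.92, 1.15 and 0.74 in a cluster led by Fcrls, Syngr1 and Gpnmb, and 1.58, 0.39 and 1.48 in one led by Cxcl10 and Irf7. These cluster values rest on 12 to 124 UMIs in a library, and the neutrophil share was not taken off.

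**Figure D4:**
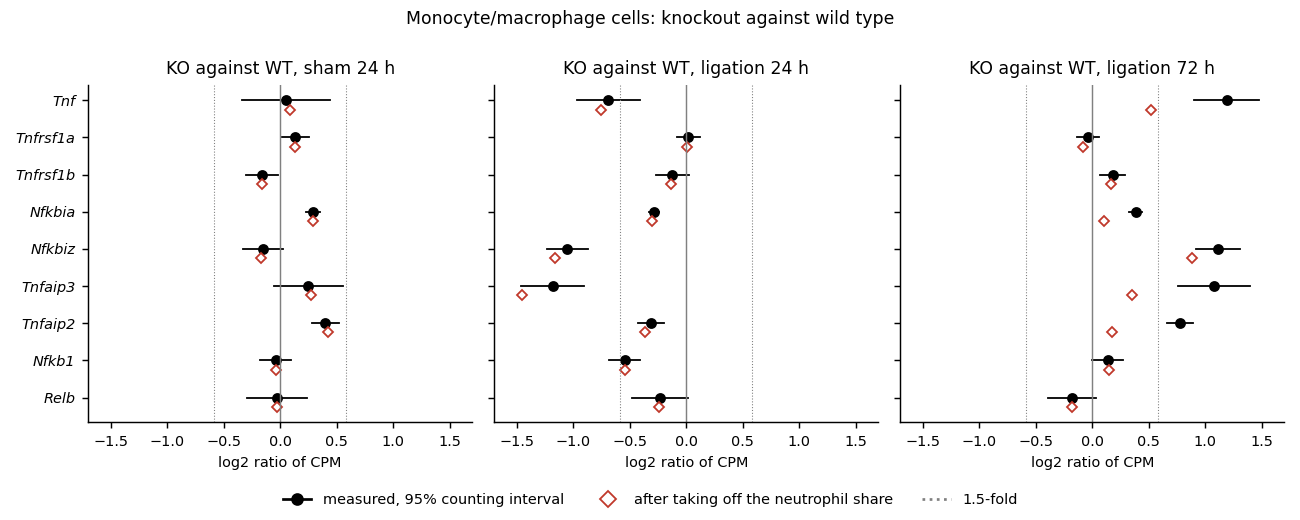
KO to WT log2 ratio of CPM for the 9 genes in monocyte/macrophage cells in sham hearts and at 24 h and 72 h after ligation; black points are measured values with exact 95% counting intervals, red diamonds the values after the neutrophil share was taken off, and dotted lines mark 1.5-fold. At 24 h the red diamonds of Tnf, Nfkbiz and Tnfaip3 lie at −0.76, −1.16 and −1.45, and at 72 h those of Tnf and Tnfaip3 lie at 0.52 and 0.35.

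Other genes of the pathway were described by list. Of 18 genes that carry the signal from receptor to IKK, none was higher and 1, Traf5, was lower in WT monocyte/macrophage cells at 24 h after ligation than in sham (median log2 ratio −0.26, all genes −0.12). Over all genes 5.84% were higher and 11.1% lower in this comparison. Of the 7 other Rel and I-kappa-B genes 1 was higher, Nfkbid at 0.94, with a median of 0.00. Of 12 genes of Tnf mRNA decay and other feedback 3 were higher and 1 lower, with a median of 0.36. Socs3, which encodes a brake on cytokine receptors, stood at 304 CPM against 144 CPM in sham, and the ribonuclease gene Zc3h12a at 26.1 CPM against 14.6 CPM, while Tnip3 was lower at 14 CPM against 21.2 CPM.

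Of 19 measured NF-kB targets 11 were higher and 1 lower in that comparison, with a median of 1.14, against the 5.84% and 11.1% over all genes. The cytokine gene Il6 stood at 43.3 CPM against 8.51 CPM (log2 ratio 2.35) and Ptgs2, which encodes the inducible cyclooxygenase, at 123 CPM against 24.5 CPM (2.33). The adhesion gene Vcam1 was the lower one, at 5.52 CPM against 9.75 CPM. In KO 7 of 18 were higher and 3 lower, where 3.73% of all genes were higher and 24.0% lower, with a median of 0.28 (all genes −0.29). Genes known to respond to tissue dissociation moved with these lists, 8 of 16 being higher in WT (median 0.59; Hspa8 0.79, Jun 0.77) and 1 of 16 in KO (median 0.04). Their part in the results was not tested.

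In KO against WT macrophages at 24 h, 9 of 18 measured targets were lower and none higher, with a median of −0.58 (all genes −0.13). Over all genes 8.08% were lower and 1.81% higher, which is the background for the lists that follow. Il6 stood at 10.1 CPM against 43.3 CPM (−2.10) and Cd83, an activation marker, at 9.56 CPM against 26.5 CPM (−1.47). Of the decay and feedback list 2 of 12 were lower, Tnip3 (−1.05) and the ubiquitin ligase gene Peli1 (−0.84), with a median of −0.40. Of the signal carriers Birc2 (−0.72) and Tab2 (−0.61) were lower, and the median was −0.10. No other Rel or I-kappa-B gene was called, the 2 lowest being Nfkbid at −0.49 and Rel at −0.47. Of the dissociation genes 4 of 16 were lower, among them Fosb (−0.75) and Egr1 (−0.74), with a median of −0.40. This comparison and that of WT with sham share the WT 24 h library. At 72 h 7 of 18 targets and 8 of 16 dissociation genes were higher in KO, where 7.45% of all genes were, with medians of 0.38 and 0.57 (all genes 0.02).

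In WT neutrophils at 24 h after ligation against sham, 22.8% of all genes were lower and 9.31% higher. Of the other Rel and I-kappa-B genes 5 of the 7 were lower (median −0.72, all genes −0.22), with Bcl3 at −0.82 and Nfkbie at −0.77. Of 15 measured targets 2 were higher and 5 lower, with a median of 0.05. The survival-linked gene Ier3 stood at 3230 CPM against 1103 CPM (1.55) and the chemokine gene Ccl4 had a ratio of 0.66, while Icam1 (−1.25) and Irf1 (−1.17) were lower. Of the feedback list Tnip2 was lower (−1.10) and Zfp36l1, which encodes an mRNA decay factor, was higher (0.80). Rbck1 (−0.76) and Sharpin (−0.67), parts of the linear ubiquitin ligase, were among 3 of 15 carriers that were lower, a share no larger than that of all genes.

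In KO against WT neutrophils at 24 h few pathway genes passed the rule, as did few of all genes, 6.88% higher and 5.44% lower. Of 15 targets 1 was higher and 2 lower (median −0.31, all genes 0.04). Sod2, the mitochondrial superoxide dismutase gene, had a ratio of −0.79, Ccl4 −0.65 and the monocyte chemokine gene Ccl2 1.35. Traf1 (−0.85) was the 1 called feedback gene of 11. None of the 16 carriers and none of the 7 other Rel and I-kappa-B genes was called.

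Across the 38 profiles of class and library, the genes most like each member were taken by Pearson correlation of log2(CPM + 1) among 11374 genes. The profiles share libraries and differ in depth, so these values only describe likeness. Tnf was most like the inflammasome gene Nlrp3 (0.96), Gcnt1 (0.95) and 1600010M07Rik (0.95). Tnfrsf1b was most like Rab32, Cd44 and Ptafr (0.97, 0.95 and 0.94), and Tnfrsf1a was most like Selenon, Abhd5 and Wdfy3 (0.92, 0.92 and 0.90).

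Nfkbia was most like Tmem154 (0.97), Tut7 (0.94) and Csrnp1 (0.94), and Tnfaip3 most like Csrnp1 (0.96), Pglyrp1 (0.94) and Mxd1 (0.94). For Nfkbiz they were Rap2c (0.94), Cass4 (0.94) and Plk3 (0.93), and for Tnfaip2 they were Nfe2l2 (0.90), Ier3 (0.89) and Fosl2 (0.89). Nfkb1 and Relb had weaker matches, Tmed5 (0.74), Dcaf12 (0.72) and Agps (0.72) for Nfkb1, and Nfkb2 (0.80), Rest (0.74) and Eml4 (0.72) for Relb. Among the members themselves Tnf with Nfkbiz and Nfkbia with Tnfaip3 were the most alike (both 0.92), while Tnf with Tnfrsf1a gave 0.34.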

How the data were processed

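The submitters deposited filtered matrices of whole UMI counts per gene and cell for 6 libraries, made with Cell Ranger 6.0.0 on mm10 per the submitters' processing notes. The lowest UMI total of a deposited cell was 500. The deposited counts were used unchanged. Cells with under 200 genes or over 20% mitochondrial UMIs were left out. Scrublet's automatic threshold marked 0 to 50 cells per library, so the highest scores were removed at 0.8% per 1000 deposited cells. With scanpy 1.11.5, 2000 variable genes without the 9 genes gave 30 components, 20 neighbours and 36 Leiden clusters (leidenalg 0.10.2, resolution 1), with no correction between libraries.

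Clusters were named from marker lists by mean log2 fold with at least 3 detected markers, and stayed unnamed where leading genes found in at least 25% of cells went against the name. That 25% limit was set after the clusters were seen, and a limit of 10% is among the alternatives. Levels come from these rebuilt names. UMIs were summed per class and library, with exact Poisson intervals for levels and exact conditional intervals for ratios (scipy 1.17.1). Shares of cells were thinned to 1000 UMIs.

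The taken-off levels use the summed markers of neutrophils (and of macrophages for endothelial cells and fibroblasts) to set their share of UMIs, and subtract that share of the same library's neutrophil or macrophage level. This treats all marker UMIs as carried over, so it takes off too much where a class makes these markers itself. All 9 members are named. From each pathway list, the 2 highest and 2 lowest ratios of WT 24 h to sham and of KO to WT at 24 h are named in macrophages and neutrophils, where a result turns on them, and the 3 genes most like each member, among genes with at least 500 UMIs. The members and lists were chosen with earlier results of these data known. With 1 library per group, no comparison has a replicate. The ratio script was checked on simulated counts.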

Additional observations from a re-analysis of the deposited data

Results flagged for a closer look

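In 5 cases the same contrast pointed in opposite directions, past the 1.5-fold limit each time, at 24 h and 72 h or in the 2 genotypes. Each group is 1 library and none of these differences was tested. In monocyte/macrophage cells the KO to WT log2 ratio was below 0 at 24 h after ligation and above 0 at 72 h for 3 genes, and the ratio at 72 h minus that at 24 h was 1.88 for Tnf, 2.16 for Nfkbiz and 2.26 for Tnfaip3. In the same cells Tnfaip3 was higher at 24 h after ligation than in sham in WT and lower in KO, with a KO minus WT difference of −1.43. In fibroblasts Nfkbiz at 72 h against 24 h was lower in WT and higher in KO, with a KO minus WT difference of 1.91. Several of the ratios behind these differences lose their call in an alternative. With the neutrophil share taken off, macrophage KO against WT at 72 h was 0.52 for Tnf and 0.35 for Tnfaip3, and Tnfaip3 in WT at 24 h against sham was 0.55. Macrophage Tnf in KO against WT at 24 h was −0.56 relative to the median gene and −0.48 without doublet removal. Tnfaip3 in KO at 24 h against sham was −0.51 and −0.39 under the same 2 settings. Fibroblast Nfkbiz at 72 h against 24 h was −0.34 in WT relative to the median gene and 0.12 in KO with the neutrophil and macrophage shares taken off. The macrophage Nfkbiz ratios of KO to WT, −1.16 and 0.88 with the neutrophil share taken off, were still called.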

How the results depend on the processing

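Of the 61 called ratios of gene and class, 59 and 60 were still called at Leiden resolutions of 0.5 and 2, 53 without doublet removal, 55 with a 10% mitochondrial limit, 60 with the members among the clustering genes, 48 relative to the median gene, 43 as a mean over cells, 59 of 60 with cells of at least 1500 UMIs, 61 with 20 UMIs over the pair, 22 at 2-fold, and 22 of 30 measured after thinning to 1000 UMIs. The remaining 3 settings were added after the data were seen, and gave 56 with leading genes in at least 10% of cells, 48 of 49 without clusters mostly of 1 library, and 51 with the neutrophil and macrophage shares taken off. Ratios not called in the main setting became called, 12 relative to the median gene, 16 as a mean over cells, 14 after thinning, 13 with the shares taken off, 5 with cells of at least 1500 UMIs, and 0 to 2 under each of the rest. With those shares taken off, 5 values changed sign: Tnfrsf1b at 72 h against 24 h in KO was −0.0213 (endothelial) and −1.91 (fibroblast), and fibroblast KO against WT at 72 h was −1.50 for Tnfrsf1b, −1.37 for Nfkbia and −0.65 for Tnfaip3. At 2-fold the counts of called pairs were 2 (WT 24 h against sham), 2 (KO 24 h against sham), 6 (WT 72 h against 24 h), 3 (KO 72 h against 24 h), 0 (KO against WT in sham) and 3 (KO against WT at 24 h). After thinning they were 5 (KO 24 h against sham), 7 (WT 72 h against 24 h), 5 (KO 72 h against 24 h), 3 (KO against WT in sham) and 3 (KO against WT at 24 h). KO against WT in sham gave 0 as a mean over cells and 0 with leading genes in at least 10% of cells, and KO against WT at 24 h gave 5 with a 10% mitochondrial limit. Without clusters mostly of 1 library, KO 72 h against 24 h gave 5 and KO against WT at 72 h gave 4, and fibroblasts, with 30 to 50 cells left in the 72 h libraries, gave no value. The cause of these changes was not tested, and no shares of all pairs are given under these settings. The shallow KO 72 h library limits all comparisons with it. No paired analysis was possible because each group is 1 library.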
